A study of Homo sapiens with 8 samples.

Results

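Distal 8q24 is taken here as the end of the long arm of human chromosome 8 from 131 Mb onwards in hg19. It held 357 of the 46665 open regions of the series, or 0.765%. Members were chosen by position alone. The peaks of 8 ATAC-seq lists, distinct intervals merged where they overlapped or touched, made the regions, and those on chromosome 8 with a start at or above the bound were kept. The first ran from 131007488 to 131007776 and the last ended at 146278010, so the window spanned 15.3 Mb. The last region outside, from 130996338 to 130996899, was listed in 5 libraries with folds from 4.04 to 8.02, and the first inside in 2 libraries with folds of 3.77 and 4.26.

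ATAC-seq marks open chromatin by transposase insertion, and all libraries came from H1650, an established line from a human lung tumour of the non-small cell type. The siMena11a cells received a mix of siRNAs matching exon 11a of hMENA, the siMena cells an siRNA pool against hMENA (gene ENAH), and the siControl cells a non-targeting pool. Each was given at 20 nmol/L with a lipid reagent, and the untreated cells received none, with 2 libraries in each of the 4 groups. Neither the harvest time nor whether replicates were separate cultures is stated, so the spread between replicates may be technical.

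Band 8q24 is best known in epithelial cancers for copy number gain, and its most studied oncogene, MYC, lies on the centromeric side of the window. The distal bands carry genes for adhesion and the cytoskeleton, among them PTK2 (focal adhesion kinase), PLEC and EPPK1 (plakin cytolinkers) and SCRIB (a polarity scaffold). They also carry the LY6 family of small surface proteins, with PSCA and LY6E, the pyroptosis pore protein GSDMD, the heat shock regulator HSF1 and the DNA helicase RECQL4. All 46 genes listed for these bands were on chromosome 8 in RefSeq. No annotation of hg19 was used here, so no region is assigned to a gene and the cell type was not checked against marker genes.

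The lists of the series held 1020 to 35472 peaks, and the shortest came from replicate 2 of siMena, siMena11a and siControl. No total read numbers are in the files. A measure of depth was the genome-wide floor, the lowest local background in a list. It was 0.881, 0.725, 0.935 and 0.538 tags per position in replicate 1 of siMena11a, siMena, siControl and untreated cells, and 2.54, 2.88, 2.27 and 1.09 in replicate 2. The 3 short lists had the highest floors, and a region missing from a list is not shown to be closed.

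Open regions in distal 8q24 numbered 23.4 per Mb, against 15.4 per Mb over the other assembled chromosomes. Lengths elsewhere ran from the first to the last region of each chromosome. Stretches that cannot hold peaks, such as centromeres, were thus counted and lower the density there. The ratio was 1.52 (95% exact Clopper-Pearson interval 1.36 to 1.68, counting error over regions only). No test was made of this or any other difference from the rest of the genome, since the window was proposed with results of these data known. The median region was 404 bp wide, against 394 bp elsewhere, and the median gap between neighbours was 14.8 kb, against 25.6 kb. Gaps under 1 kb made up 8.99% of all gaps in the window and 7.51% elsewhere. The 3 widest members ran from 141520871 to 141522467 (1597 bp, 7 libraries), from 146126397 to 146127884 (1488 bp, 6 libraries) and from 143807840 to 143809261 (1422 bp, 5 libraries).

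Regions were unevenly spread along the window. The 1 Mb bin from 145 to 146 Mb held 52 regions, the most of the 16 bins, and ranked 11th by number among the 2832 bins of the assembled chromosomes that held any. The bins from 134, 144 and 131 Mb followed with 46, 45 and 44. The bin from 137 Mb held 1 region, those from 136, 138 and 140 Mb held 3, 4 and 5, and the longest gap ran for 1248 kb from 136478449 to 137726330. The median bin elsewhere held 15 regions (quartiles 8 and 23), and the median of the 16 window bins was close to it at 16.5. Above 141 Mb there were 199 regions at 37.7 per Mb, and below it 158 at 15.8 per Mb. The higher density of the window over the rest of the genome was thus found beyond 141 Mb and in single bins before it.

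**Figure D1:**
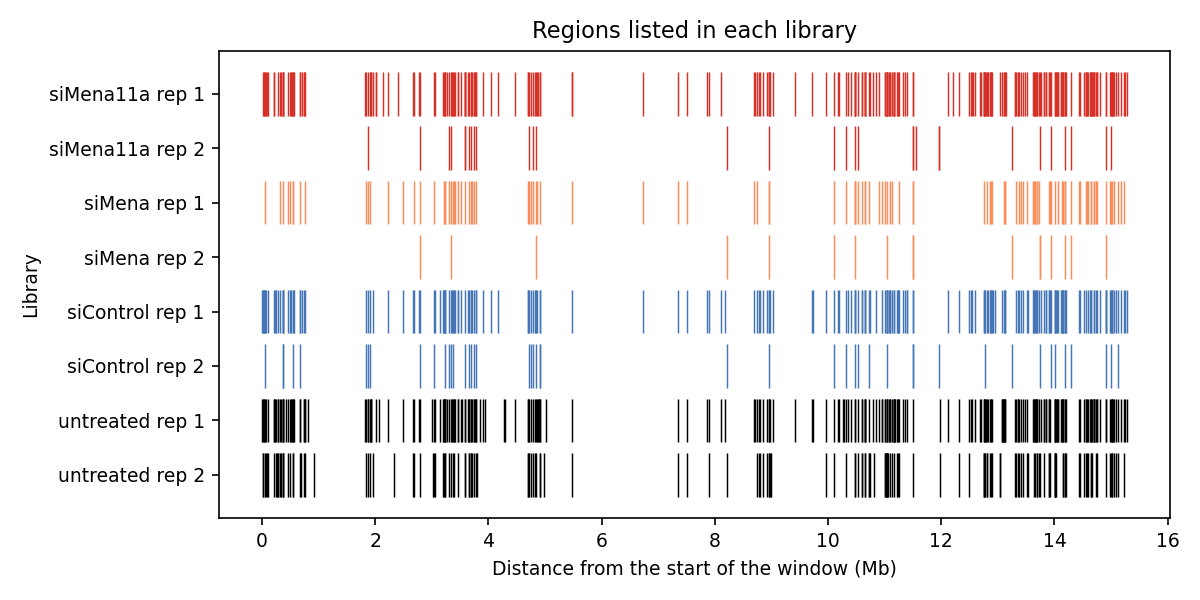
Each tick is an open region of distal 8q24, placed by its distance in Mb from the start of the window and drawn in the rows of the libraries that list it. Replicate 2 of siMena11a, siMena and siControl lists 31, 17 and 46 of the 357 regions, and all libraries leave the stretch around 6 Mb nearly empty.

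Of the 357 regions, siMena11a replicate 1 listed 273, siMena replicate 1 listed 116, siControl replicate 1 listed 228 and untreated replicate 1 listed 275. Replicate 2 listed 31, 17, 46 and 170 in the same order of groups. Short lists lay largely within long ones: 25 of the 31, 12 of the 17, 41 of the 46 and 140 of the 170 were also in replicate 1 of the same group. Exactly 1 library listed 89 regions (24.9%, against 31.3% elsewhere), 98 were listed by at least 5 (27.5%, against 24.6%) and 7 by all 8 (1.96%, against 1.16%). The share listed by all 8 was 1.93% on the rest of chromosome 8, 3.04% on chromosome 5 below 46 Mb and 0.848% on chromosome 20. The most frequent pattern, in 56 members (15.7%, against 14.2% elsewhere), was all replicate 1 libraries with untreated replicate 2. The next, in 50 (14.0%, against 9.42%), was replicate 1 of siMena11a, siControl and untreated.

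As a share of its own list, distal 8q24 held 0.792% of the peaks of siMena11a replicate 1 and 1.17% of replicate 2. For siMena the shares were 0.831% and 1.67%, for siControl 0.868% and 0.879%, and for untreated cells 0.808% and 0.816%. Group means were 0.979% ± 0.264 in siMena11a, 1.25% ± 0.591 in siMena, 0.874% ± 0.00804 in siControl and 0.812% ± 0.00580 in untreated cells (SD, n = 2 each). The siMena11a and siMena means exceeded the siControl mean by less than the SD of their own replicates. For siControl over untreated cells the difference was larger than either SD, but 2 libraries against 2 allow no exact two-sided permutation p below 0.33. The 95% intervals of the siControl shares, 0.761% to 0.985% and 0.645% to 1.17%, both took in the untreated mean. The higher shares stood in the 2 shortest lists, with 33 of 2832 peaks (95% interval 0.803% to 1.63%) and 17 of 1020 peaks (0.974% to 2.66%).

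List length moved with the share. When every list was shortened to its 1020 peaks of highest −log10 q, all libraries had 14 to 21 peaks in the window, or 1.37% to 2.06%. In untreated replicate 1 the share was then 2.06%, against 0.808% of the full list, and in siControl replicate 1 1.67%, against 0.868%. The strongest peaks by q were in the window more often than all peaks were in 7 of the 8 libraries, the other being siMena replicate 2, which has 1020 peaks in all. The group order of the full lists was not kept, since siMena replicate 1 and untreated replicate 2 shared the lowest share.

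**Figure D2:**
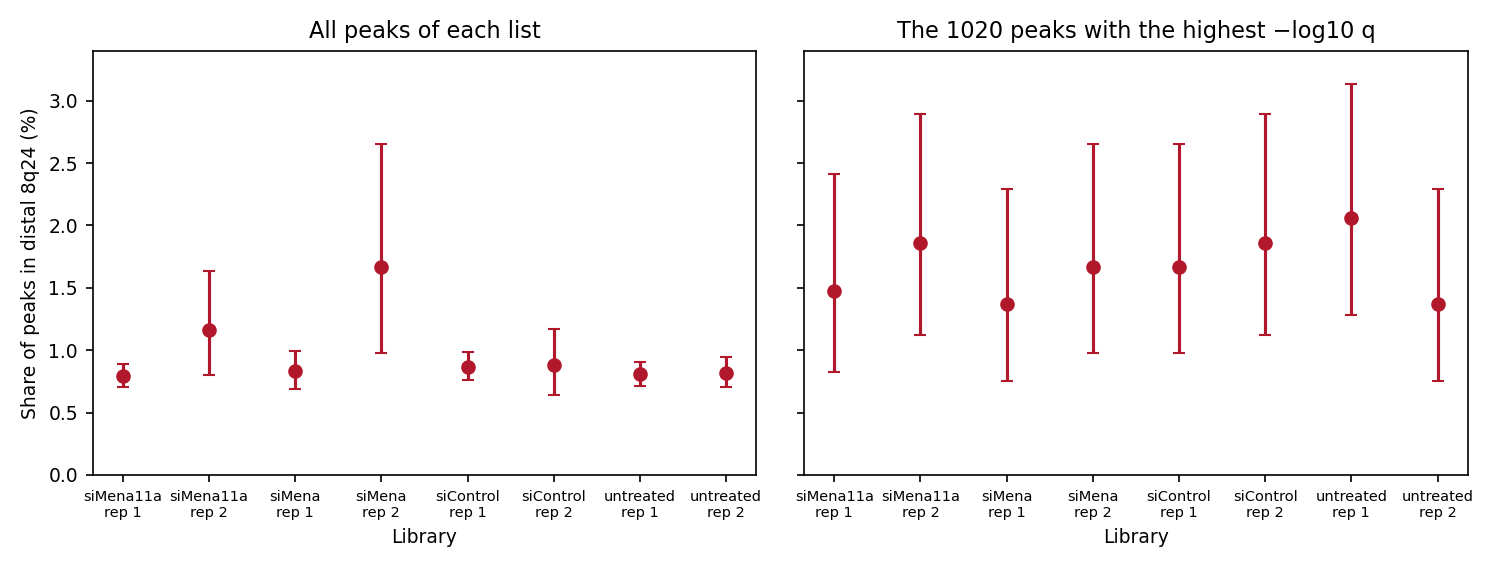
Points give the share of each library's peaks in distal 8q24 in percent, for full lists (left) and for the 1020 peaks with the highest −log10 q (right), and bars give 95% exact intervals for counting error. Full lists run from 0.792% to 1.67%, and shortened lists from 1.37% to 2.06%.

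The local background of a peak is what the caller sets its height against: the tags in the 10 kb around the summit, scaled to 200 bp, or the genome-wide floor where that is higher. It was recovered from the deposited fold and −log10 p. At the median summit in the window, the 10 kb held 209 and 434.5 tags in siMena11a replicates 1 and 2, and 166 and 464 in siMena. It held 215.5 and 340.5 tags in siControl and 141 and 189 in untreated cells. Elsewhere the medians, in the same order, were 106 and 183, 81 and 226, 105 and 163, and 68 and 110 tags.

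The ratio of window to elsewhere was 1.97 and 2.37 in siMena11a, 2.05 and 2.05 in siMena, 2.05 and 2.09 in siControl and 2.07 and 1.72 in untreated cells. It was above 1 in 8 of 8 libraries, with a mean of 2.05 ± 0.179 (SD, n = 8). The group means of 2.17 ± 0.285, 2.05 ± 0.00263, 2.07 ± 0.0259 and 1.90 ± 0.251 (SD, n = 2 each), for siMena11a, siMena, siControl and untreated cells, differed from each other by at most 0.277, which is below the SD of the siMena11a replicates and above that of the untreated ones. The elevated background was thus found in transfected and untreated cells alike.

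Peaks raise their own background, so the tags outside the summit pileup were also compared. These were 1.84 to 2.47 times as many in the window as elsewhere, relative to the floor. At regions with no other region within 10 kb, 146 of the 357 members, the ratio was 1.83 to 2.64. The short lists hold few of these: the highest ratio, in siMena11a replicate 2, rests on 20 window summits. That of siMena replicate 2, at 1.95, rests on 9. The lower end of the background was higher too: its 10th percentile was 1.88 to 2.29 times that elsewhere. No summit in the window was at the genome-wide floor in any library, against 4.31% to 13.5% of summits elsewhere. At the 7 regions listed in all 8 libraries the median background was 1.20 to 2.05 times that at the 494 such regions elsewhere. Copy number of the window in these cells was not measured here, and its part in these values was not tested.

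The rise was larger towards the chromosome end. In the part above 141 Mb the median background was 1.89 to 2.67 times that elsewhere, and below it 1.38 to 1.81 times, higher above 141 Mb in 8 of 8 libraries. By bins, the median over libraries was 2.59 from 145 to 146 Mb, the 4th highest of 1918 bins with at least 10 regions. The bins from 142, 141, 146, 143 and 144 Mb had 2.21, 2.19, 2.14, 2.13 and 2.06 and ranked 10th, 11th, 14th, 15th and 18th. Libraries differed most in the bin from 142 Mb, which holds the neighbouring regions from 142502299 and 142503020: replicate 2 of siMena11a, siMena and siControl had 4.10, 3.56 and 4.21 there, against 1.89 in untreated replicate 2. In replicate 1 of the same groups it was 2.15, 2.19 and 2.24, against 2.07 in untreated cells. The replicate 2 values of the transfected groups rest on few listed regions, these neighbours among them, while untreated replicate 2 listed more. The region from 142502299 was picked for its listing in transfected libraries alone. The difference in replicate 2 is therefore not separate from that choice and does not compare the same regions. In all, 6 window bins were among the 20 highest, and 11 of the 11 ranked ones were above 1, against 43.5% of bins elsewhere. Bins with fewer than 10 regions were not ranked and did not follow this order. Those from 137, 138 and 140 Mb had values of 0.580, 0.948 and 1.17, on 1, 4 and 5 regions. Those from 132 and 136 Mb had 1.71 and 2.50, on 9 and 3 regions. Regions were also denser above 141 Mb, at 37.7 per Mb against 15.8 below it. Tags outside the summit pileup were compared over the whole window only, so the part of nearby peaks in the rise was not tested.

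**Figure D3:**
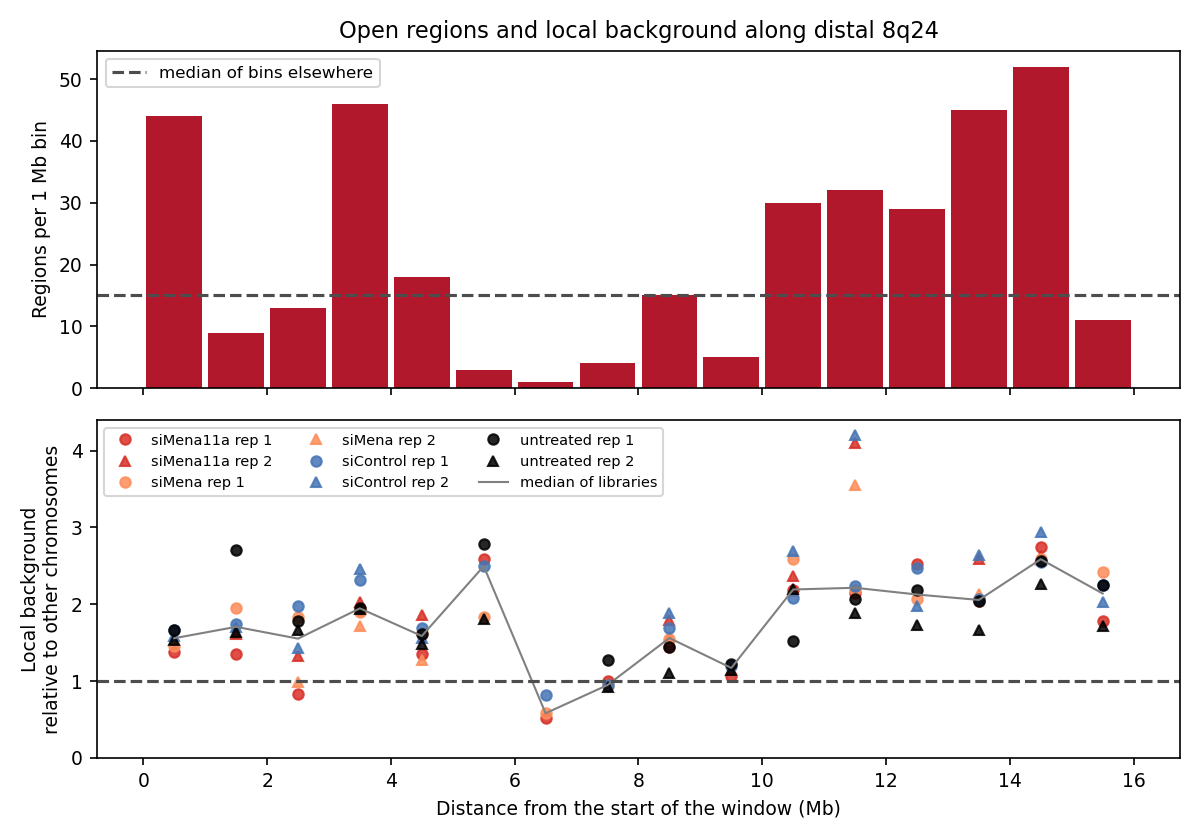
Bars show the number of open regions per 1 Mb bin by distance from the window start, with the median of bins elsewhere (15) dashed. Points below show each library's median local background in the bin over its median on other assembled chromosomes (1, dashed), and the line is their median, which stays above 2 in the 6 bins from 10 Mb on.

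Set against chromosomes, the window's median ratio of 2.05 stood above that of chromosome 20, which at 1.47 was the highest whole chromosome, and of chromosome 16 at 1.41. The rest of chromosome 8 stood at 1.04. Whole chromosomes can hide higher parts: chromosome 5 stood at 1.10, and its part below 46 Mb at 1.56. Library by library, the window's background was 1.67 to 2.13 times that of the rest of chromosome 8. It was 1.11 to 1.46 times that of chromosome 5 below 46 Mb and 0.998 to 1.68 times that of chromosome 20, where siMena replicate 2 was the library without a higher value in the window.

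Among the members listed by at least 4 libraries, the highest backgrounds stood close together, from 145010635 to 145011317, from 145017247 to 145017717 and from 145022580 to 145023050. Their medians were 12.5 to 17.0 times the floor, highest in the middle one. The lowest were at 133663698 to 133664031, 135814460 to 135814826 and 138505115 to 138505429, with 1.36, 1.94 and 1.78 times. The first of these low-background regions had folds of 8.77 in siMena11a replicate 1, 9.63 in siControl replicate 1 and 10.3 and 6.19 in untreated cells. The region from 145017247 had 3.51, 3.39, 4.21 and 2.43 in the same libraries, on 60, 51, 50 and 27 summit tags, against 19, 20, 19 and 13. More tags at the summit went with a lower fold there. These regions were picked by their background, by which the fold is divided, so this contrast is partly set by the choice.

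Over the window as a whole, summits had more tags and a lower fold than elsewhere. Summits had a median of 28 and 35 tags in siMena11a, 22 and 35 in siMena, 27 and 34.5 in siControl and 23 and 24 in untreated cells. Elsewhere the medians were 19 and 22, 15 and 24, 18 and 21, and 15 and 18 tags. Fold, the authors' ratio of summit tags to local background with 1 added to each, was nevertheless lower in the window. Its median was 5.58 and 3.86 in siMena11a, 5.17 and 3.78 in siMena, 5.27 and 4.30 in siControl and 6.63 and 5.35 in untreated cells. Elsewhere it was 6.29 and 4.63, 5.91 and 4.32, 6.20 and 4.90, and 6.67 and 5.99. The ratio of window to elsewhere ran from 0.833 (siMena11a replicate 2) to 0.995 (untreated replicate 1) and was below 1 in 8 of 8 libraries, with a mean of 0.886 ± 0.0482 (SD, n = 8). With the start bound 1 Mb higher it was below 1 in 7 of 8, since the log2 ratio in untreated replicate 1 was then 0.0037, against -0.0074 with the bound used. Without the added 1 and with the bound used, the log2 ratio ran from -0.530 to -0.328 over the 8 libraries. Against the rest of chromosome 8 the median fold was lower in the window in 8 of 8 libraries. Against chromosome 5 below 46 Mb it was lower in 6 of 8, and against chromosome 20 in 5 of 8.

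**Figure D4:**
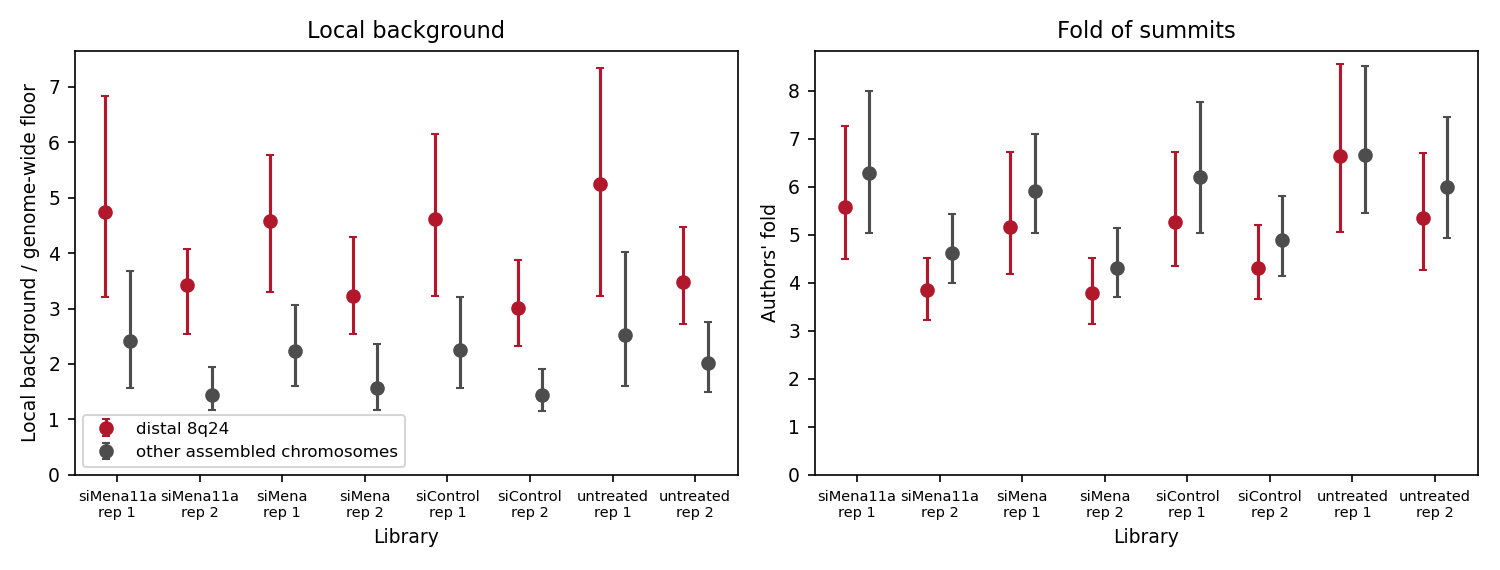
Points are medians and bars quartiles over summits, for distal 8q24 (red, left of each pair) and the other assembled chromosomes (grey). The local background over the floor is about 2 times higher in the window in all 8 libraries (1.72 to 2.37), and the fold is lower (0.833 to 0.995 times).

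The regions listed in all 8 libraries give the values behind these medians. The strongest by its lowest score percentile ran from 139964955 to 139965816. Its summit had 94 and 42 tags in siMena11a, 56 and 37 in siMena, 97 and 48 in siControl and 86 and 69 in untreated cells. Folds were 12.2 and 5.50, 11.5 and 5.49, 13.6 and 6.84, and 12.7 and 12.2. The replicate 2 libraries of the transfected groups were the low ones, and both untreated libraries and the replicate 1 libraries lay within 11.5 to 13.6, so the groups overlapped.

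A second, from 141108732 to 141109810, had folds of 10.1 and 3.63 in siMena11a, 7.72 and 3.49 in siMena, 8.73 and 4.38 in siControl and 9.32 and 10.1 in untreated cells. The regions from 135844052 to 135845235, from 141474102 to 141475355 and from 133787101 to 133788262 followed, with folds from 3.86 to 9.97, from 3.44 to 11.0 and from 4.03 to 9.60. In each, the 3 lowest folds were again those of replicate 2 of the transfected groups. The other 2 regions in all lists ran from 134332607 to 134333324, with folds from 3.30 to 13.4, and from 142503020 to 142503343, with folds from 4.38 to 7.32.

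Regions listed in transfected libraries and not in untreated ones are named by the choice of these members, so their counts are a description. Over the whole series, 4 regions (0.00857%) were listed in all 6 transfected and in no untreated library, and 2 of them were in distal 8q24 (0.560% of members). The other 2 lay on chromosome 1 (236877019 to 236877873) and chromosome 17 (21902680 to 21903387). With a listing in at least 5 transfected libraries there were 3 in the window (0.840%), against 0.0514% of all regions or 24. With at least 4 there were the same 3 (0.840%), against 0.144% or 67. With at least 3 there were 6 (1.68%), against 0.546% or 255. With at least 2 the window held 13 (3.64%), close to the 3.5% of all regions, and with at least 1 it held 52 (14.6%), below the 18.4% of all regions. In the opposite direction, 3 members (0.840%) were listed in both untreated and no transfected library, against 0.947% of all regions. The shares at 3 and more transfected libraries were more than 3 times those of the series, and they rest on 6 regions.

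The first, from 142502299 to 142502807, had 16 and 65 summit tags in siMena11a, 20 and 76 in siMena and 34 and 65 in siControl, and was not listed in untreated cells. Divided by the floor, this was 18.2 and 25.5, 27.6 and 26.4, and 36.4 and 28.7 times. It ranked at the 9.25th, 37.0th and 63.8th percentile of scores in replicate 1 of siMena11a, siMena and siControl, and at the 93.5th, 92.5th and 93.7th in replicate 2. It was thus weak or middling in the long lists and among the strongest peaks of the short ones.

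A neighbour 212 bp away, from 142503020, was listed in all 8. Its background was 3.93 and 5.80 times the floor in siMena11a, 5.30 and 5.54 in siMena, 6.44 and 6.06 in siControl and 2.71 and 3.34 in untreated cells, so the transfected and the untreated libraries did not overlap. Of the 501 regions on assembled chromosomes listed in all 8 libraries, 15 (2.99%) showed this order, and of the 7 in the window this was the one that did. Its folds of 4.71 and 4.38, 5.37 and 4.55, 5.56 and 5.77, and 7.32 and 5.39 overlapped. The 10 kb around the summit of this neighbour take in the region from 142502299, which was picked for its transfected-only listing. The order of the neighbour's backgrounds is therefore not separate from that choice.

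The other region in all 6 transfected lists, from 144940230 to 144940818, had 20 and 80 summit tags in siMena11a, 23 and 87 in siMena and 32 and 66 in siControl. These were 22.7 and 31.4, 31.7 and 30.2, and 34.2 and 29.1 times the floor. Its score percentiles were 40.3, 68.4 and 71.2 in replicate 1 and 97.8, 96.3 and 95.9 in replicate 2 of the same groups. The nearest region listed in an untreated library, from 144922818 to 144923507, was 16722 bp away and was in no replicate 2 list of a transfected group.

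The region from 145288179 to 145288523 was missing from siControl replicate 1 as well as from the untreated lists. Its folds were 4.80 and 6.96 in siMena11a, 5.00 and 5.74 in siMena and 7.37 in siControl replicate 2, higher in replicate 2 where both are given. Its 11 and 48, 11 and 43, and 45 tags put it at the 11.6th and 19.2nd percentile in replicate 1 and at the 96.6th, 87.8th and 96.3rd in replicate 2. By contrast, the region from 139964955 had 107, 77.2 and 104 times the floor at its summit in replicate 1 of siMena11a, siMena and siControl, and 16.5, 12.9 and 21.2 in replicate 2.

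The remaining transfected-only members each kept to 1 replicate number. Those from 137726330 to 137726694 and from 141468201 to 141468701 were listed in the 3 replicate 1 libraries, with folds of 7.62, 7.22 and 7.72 and of 6.11, 4.44 and 5.05 in siMena11a, siMena and siControl. The first lay alone, 620153 bp from the next region of an untreated library, and the second 125 bp from a region listed in both. The one from 144248082 to 144248493 was listed in the replicate 2 libraries, with folds of 4.01, 2.80 and 3.43. Leaving out untreated replicate 2 or siControl replicate 1 gave 3 regions in the window instead of 2, of 35 or 9 in the series instead of 4. Without siMena11a replicate 1, siMena replicate 1 or untreated replicate 1 the window kept a count of 2, of 12, 11 or 9 in the series. A minimum score of 50 gave 1 of 7, since the region from 142502299 scored 42 in siMena11a replicate 1. What these regions hold in the genome, repeats included, was not tested.

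**Figure D5:**
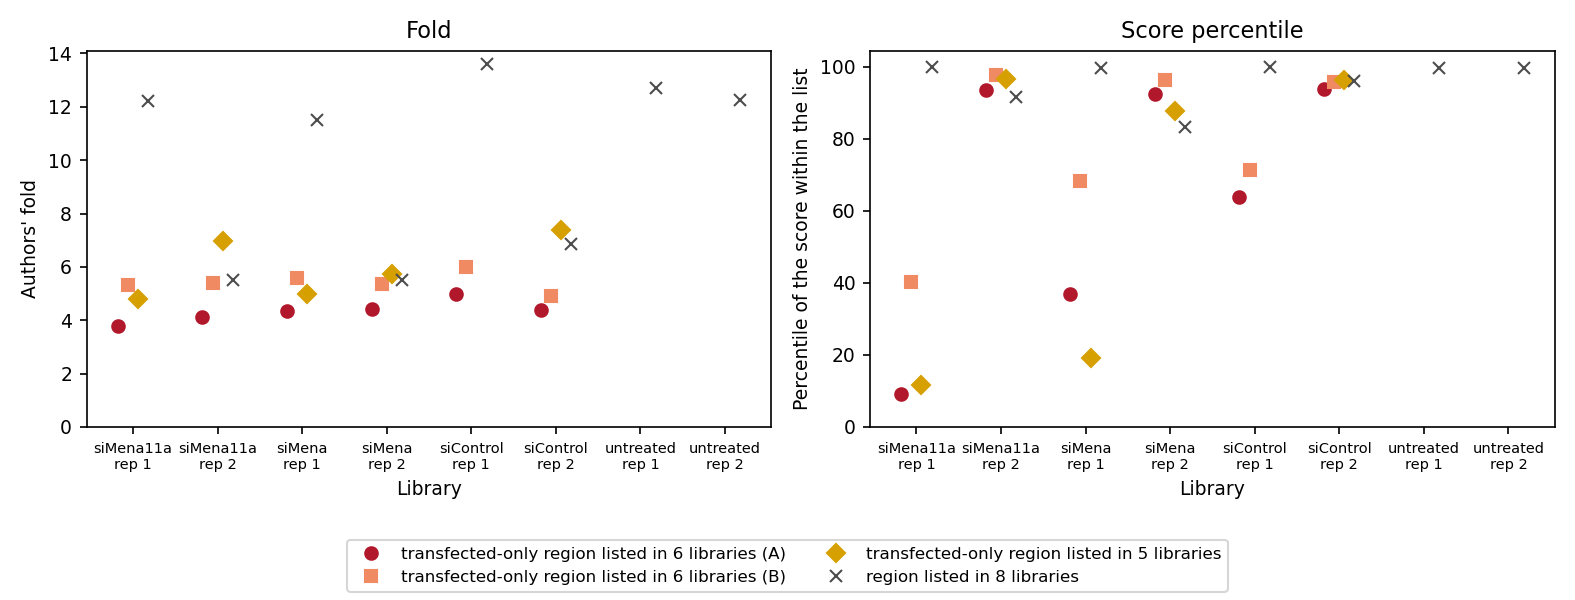
Fold (left) and score percentile within the list (right) by library, for the regions from 142502299 (A) and 144940230 (B), for the one from 145288179, and for the region from 139964955 as one in all lists. Libraries without a symbol do not list the region. In replicate 2 of the transfected groups the first 3 rank between the 87.8th and 97.8th percentile, above their replicate 1 ranks.

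Silencing of the 11a isoform, against the non-targeting siRNA, gave 1 gained region in the window (0.280%, against 0.0279% of all regions) and 0 lost (against 0.0557%), with 22 open in all 4 libraries (6.16%, against 4.43%). Gained means listed in both libraries of the first group and neither of the second, and lost the opposite. The gained region, from 134587615 to 134588057, had 38 and 32 summit tags and folds of 3.43 and 3.27 in siMena11a. It was also listed in untreated replicate 2, with 42 tags and a fold of 4.30, and not in siMena, so it was the 1 region gained over siMena as well (0.280%, against 0.24%). Its background was 11.8 and 3.57 times the floor in siMena11a. Without siMena11a replicate 1 the gained count was 3 (0.840%, against 0.294% of all regions) and the lost count 18 (5.04%, against 5.35%). Without its replicate 2 they were 67 (18.8%, against 23.98%) and 1 (0.280%, against 0.150%), and without siControl replicate 2 they were 3 (0.840%, against 0.0964%) and 23 (6.44%, against 6.14%). The large counts were thus near or below the share over all regions.

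Silencing of hMENA as a whole, against the same control, gave 0 gained regions (against 0.00214%) and 3 lost (0.840%, against 1.03% of all regions), with 11 open in all 4 libraries (3.08%, against 1.36%). The lost region from 143781104 to 143782173 had folds of 5.72 and 4.17 in siControl, 6.64 in siMena11a replicate 1 and 8.17 and 6.72 in untreated cells. That from 131378550 to 131378897 had 7.11 and 3.86 in siControl, and that from 135904886 to 135905257 had 4.19 and 3.52. Both were listed in siMena11a replicate 1 and in at least 1 untreated library. The siMena lists were shorter than the siControl lists: replicate 1 gave 6 regions in siMena only (1.68%, against 1.81% of all regions) and 118 in siControl only (33.1%, against 28.2%), and replicate 2 gave 1 (0.280%, against 0.326%) and 30 (8.40%, against 9.06%). Leaving out siMena replicate 1, the lost count was 29 (8.12%, against 8.38%) and the gained count 1 (0.280%, against 0.255%). Leaving out its replicate 2, the gained count was 5 (1.40%, against 1.73%). Leaving out siControl replicate 2, the lost count was 117 (32.8%, against 28.1%) and the gained count 1 (0.280%, against 0.0621%).

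Relative to siMena, siMena11a gained the region from 134587615 and lost 0 (against 0.00643%), with 11 open in all 4 libraries (3.08%, against 1.28%). Leaving out siMena11a replicate 1 gave 4 gained (1.12%, against 0.538% of all regions) and 1 lost (0.280%, against 0.120%), and leaving out its replicate 2 gave 160 (44.8%, against 45.3%) and 0 (against 0.0814%). Leaving out siMena replicate 1 gave 13 (3.64%, against 3.86%) and 1 (0.280%, against 0.251%), and its replicate 2 gave 2 (0.560%, against 0.339%) and 4 (1.12%, against 0.979%).

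Transfection with the control siRNA, against untreated cells, gave 2 gained regions (0.560%, against 0.12% of all regions), which were the 2 listed in all transfected libraries. It gave 9 lost (2.52%, against 3.65%), with 36 open in all 4 libraries (10.1%, against 9.33%). The named lost regions ran from 131276066 to 131276326, with folds of 5.91 and 4.53 in untreated cells, from 141997782 to 141998109 with 6.70 and 6.63, and from 145581808 to 145582659 with 6.81 and 4.31. The first was in no transfected list, the second also in siMena11a replicate 1 with a fold of 6.54, and the third in replicate 1 of siMena11a and siMena with 5.75 and 4.03. Without siControl replicate 1 the gained count was 5 (1.40%, against 0.769%) and the lost count 104 (29.1%, against 27.7%), and without its replicate 2 the gained count was 16 (4.48%, against 5.55%). Without untreated replicate 1 the lost count was 31 (8.68%, against 11.3%), and without its replicate 2 the counts were 4 (1.12%, against 0.283%) and 69 (19.3%, against 22.5%). Comparisons with siControl share its 2 libraries.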

How the data were processed

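Each library has 1 deposited peak list in hg19. Per the submitters' processing notes, MACS2 2.2.5, Bowtie2 2.3.4.2, FastQC 0.11.5 and SAMtools 1.7 were used. Trimming, duplicate removal and read shift are not given in the sources used here. The score deposited by the authors is 10 times −log10 q, rounded down, in 99.98% to 100% of the entries of each list, and the deposited −log10 p and −log10 q were left by the authors as their caller wrote them. The fold is the authors' ratio of summit tags to local background, with 1 added to each. These are values within 1 list; setting them side by side between lists is a description.

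Members and lists were chosen with earlier results of these data known. Summit tags and local background were solved from fold and −log10 p with the caller's Poisson formula, within 0.001 of the deposited −log10 p in 100% of rows. All backgrounds above the floor were multiples of 0.02, within 0.001, or 1 tag in 10 kb. The same code recovered 100% of 2000 simulated rows and the listing of 100% of 300 simulated regions. A region's value in a library is that of its strongest summit. Listing means a peak in the region. Named by rule were: regions in all 6 transfected and no untreated list; up to 3 gained and 3 lost per comparison and the 5 strongest in all lists, by lowest score percentile; the 3 widest; the fullest and emptiest bins; the regions at the bound; and the 3 highest and 3 lowest backgrounds. Other regions were named after their values were seen. Coordinates count from 1. Alternatives were other start bounds, a score of at least 50, shortened lists, coverage of 50% of a region and left-out libraries. Computation used pandas 2.3.3 and numpy 2.4.6 under Python 3.11.15, with SciPy 1.17.1 for intervals and matplotlib 3.10.9 for figures.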

Additional observations from a re-analysis of the deposited data

How the results depend on the processing

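The counts of gained and lost regions moved most with the libraries compared, whose lists differ in length, and no value here carries a test. No paired analysis was possible because the counts come from no test to which a block could be added; regions were counted within each replicate number as a description. With start bounds 1 Mb lower and higher and a score of at least 50, the share of peaks, the density ratio, the fold ratio and the background ratio moved by less than their spread, although with the higher bound the fold ratio of untreated replicate 1 crossed 1. Leaving out each library in turn gave a median share of 0.831% to 0.868%, a density ratio of 1.51 to 1.57, a median log2 fold ratio of -0.19 to -0.19 and a median background ratio of 2.05 to 2.05. The median share was 1.67% in shortened lists, the median log2 fold ratio -0.40 with no added 1, against -0.19, and the median background ratio 2.60 at regions of 1 library, against 2.05. Regions in all 6 transfected and no untreated list numbered 1 (7 in the series) at a score of at least 50 and 0 (4) in shortened lists, against 2 (4). They numbered 5 (199) in replicate 1 and 4 (129) in replicate 2 libraries alone, both chosen after seeing the data, and 2 to 3 (4 to 35) with a library left out.

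Counts over the series follow in parentheses. Shares for siMena against siControl, and for the largest counts with a library left out, are given above. For siMena11a against siControl, 69 (11295) regions were gained and 24 (2916) lost within replicate number 1, 3 (479) and 18 (2787) within 2, and 0 (14) were gained with peaks covering 50% of a region; leaving out libraries gave 1 to 67 gained and 0 to 23 lost. For siMena against siControl these were 6 (844) and 118 (13180), and 1 (152) and 30 (4227), with 1 (81) lost in shortened lists, and 0 to 5 gained and 4 to 117 lost. For siControl against untreated they were 22 (3234) and 69 (10592), and 6 (498) and 130 (17086), with 0 (47) gained and 0 (57) lost in shortened lists, and 3 to 16 gained and 9 to 104 lost. For siMena11a against siMena they were 161 (21215) and 4 (500), and 16 (1949) and 2 (182), with 0 (91) gained under 50% coverage, 1 (27) lost in shortened lists, and 2 to 160 gained and 0 to 4 lost. Within replicate numbers 1 and 2, gained and lost were 19.3% and 6.72%, and 0.840% and 5.04% of members for siMena11a against siControl. Over all regions they were 24.2% and 6.25%, and 1.03% and 5.97%. For siControl against untreated, members gave 6.16% and 19.3%, and 1.68% and 36.4%, against 6.93% and 22.7%, and 1.07% and 36.6%. For siMena11a against siMena, they gave 45.1% and 1.12%, and 4.48% and 0.560%, against 45.5% and 1.07%, and 4.18% and 0.390%. None of the regions named as gained or lost was called in shortened lists. The causes were not tested.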
